A study of Mus musculus with 24 samples.

Results

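IAP elements (intracisternal A-particle) are the retrotransposons described here, as counted by RNA-seq in mouse embryonic fibroblasts (MEFs) lacking up to 6 of the enzymes that methylate histone H3 at lysine 9 (H3K9 KMTs). The members are all repeat elements of the counts table whose family is ERVK and whose name starts with IAP. There are 25 of them among 1445 repeat elements and 276 ERVK elements, and all 25 passed the filter on low counts. Names ending in -int or _I (10 elements) stand for the internal part, and the other 15 names stand for long terminal repeats (LTRs).

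Every line carried *Eset1*-conditional alleles and came from 1 clone of MEFs (Eset25) selected for high Cre activity. 4-hydroxytamoxifen (4-OHT) activates a Cre recombinase that removes floxed exons of *Eset1*, and per the study's methods the Cre construct was put back after gene disruption and kept under puromycin. WT was this parent without 4-OHT (*Eset1* cKO) and *E1* the same line with 4-OHT (*Eset1*KO). *E2* was the clone A4 without 4-OHT (*Eset1*cKO *Eset2* KO), and *E1E2* was A4 with 4-OHT (*Eset1/Eset2* KO). *E1 S1S2* came from clone B1 (*Eset1/Suv39h1/Suv39h2* KO) and *E1E2 G9Gl* from a descendant of A4 (*Eset1/Eset2/G9a/Glp* KO), both with 4-OHT. *6KO1* (descended from B1) and *6KO2* (descended from the *E1E2 G9Gl* clone) lacked all 6 genes after 4-OHT. *Eset2*, *G9a*, *Glp*, *Suv39h1* and *Suv39h2* were disrupted with CRISPR/Cas9, and each mutant line is a single clone, so that genotype and clone cannot be told apart. The titles mark WT and *E2* as controls, although a treatment label names 4-OHT for every sample. There were 3 libraries per condition, 24 in all, and they are given in the order of their replicate numbers.

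IAPs are rodent endogenous retroviruses of the ERVK family. The internal part of an element codes for Gag, protease and polymerase, and the flanking LTRs hold the promoter and the site where transcripts end. In somatic cells and in the early embryo IAPs are kept silent by DNA methylation and by H3K9 methylation. The latter is laid down by ESET (SETDB1), which KRAB zinc-finger proteins recruit through TRIM28. Suv39h1 and Suv39h2 set H3K9 trimethylation at heterochromatin, and G9a with Glp set H3K9 mono- and dimethylation. The count of an element adds up the reads of every genomic copy, and no position can be given for it.

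The libraries held 24736829 to 37419071 counts, of which 19541909 to 31489070 fell on genes and 18310 to 500996 on IAP elements. Levels are given in CPM, counts scaled to the total of the gene counts of each library after TMM adjustment. They are not divided by length, so levels of different elements are not compared. WT replicate 2 stood apart from its group: over all gene and repeat entries, its chi-square per entry against the other WT libraries was 74.6 and 61.7, while all other pairs within a condition lay between 2.42 and 34.4. Without it, the number of IAP elements called against WT stayed the same in 6 of the 7 comparisons and was 7 instead of 8 in *E1E2*, where IAP-d-int stood at a log2 fold change of 0.95. The summed level of 8 fibroblast markers was 6607 to 8407 CPM in WT, lowest in *6KO1* (3679 to 4169.6 CPM) and highest in *E1E2 G9Gl* (8455 to 9186 CPM). Single markers differed in both directions. In *E1 S1S2*, *Col1a2* averaged 329 ± 20 CPM (1849 ± 261 in WT) and *Col3a1* 108 ± 7.54 (714 ± 58.6). *Vim* averaged 2493 ± 70.2 CPM there (1925 ± 74.6 in WT) and *Col1a1* 1907 ± 177 (1704 ± 365). In *E1E2 G9Gl*, *Col3a1* averaged 1920 ± 20.2 CPM. Of these markers, *Thy1* had 176 to 220 counts in WT and 168 to 231 in *E1*. It had 0 to 2 in *E1 S1S2*, 0 to 1 in *6KO1* and 0 to 4 in *6KO2*. In *E2*, *E1E2* and *E1E2 G9Gl* it had 21 to 32, 43 to 54 and 324 to 395. *Pdgfra* had 112 to 150 counts in WT, 2 to 6 in *6KO1* and 10 to 13 in *E1E2 G9Gl*, and 37 to 118 elsewhere. The 3 leukocyte markers summed to 19 to 21.5 CPM in *6KO1* and at most 7.28 CPM elsewhere. The sum in *6KO1* was mostly *Cd68*, with a mean of 19.4 CPM. *Ptprc* had 0 counts in WT, 15 to 19 in *6KO1*, 39 to 42 in *E1E2 G9Gl*, 11 to 25 in *6KO2* and at most 1 elsewhere. *Cd3e* had 35 to 37 counts in *E1E2 G9Gl* and at most 1 elsewhere. The 2 endothelial markers (*Pecam1* and *Cdh5*) summed to 3.57 to 4.17 CPM in *6KO1*, 2.45 to 3.02 in *6KO2* and 1.28 to 1.87 in *E1E2 G9Gl* against 0.198 to 0.337 in WT and at most 0.585 elsewhere, so they were higher in the same 3 lines as the IAP sums. The 2 epithelial markers summed to at most 0.634 CPM and the 3 pluripotency markers to at most 0.715 CPM in any library, with *Zfp42* at 0 throughout. The part of these differences in the IAP levels was not tested. In such bulk samples, more RNA per cell and more cells with the RNA cannot be told apart.

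Summed over the 10 internal elements, IAP levels were above WT in all 7 other conditions, and most in the lines that lacked *Eset1*, *G9a* and *Glp* together. The internal sum was 619.8 ± 21.8 CPM in WT (mean ± SD, n = 3 as for all means below), 846 ± 9.98 in *E1E2*, 1016 ± 20.2 in *E1 S1S2*, 1053 ± 53.1 in *E2* and 1345 ± 53.7 in *E1*, that is 1.36 to 2.17 times the WT mean. It reached 14865 ± 677 CPM in *6KO1*, 9305 ± 265 in *6KO2* and 6379 ± 81.5 in *E1E2 G9Gl*, which is 24, 15 and 10.3 times the WT mean. Summed over the 15 LTR elements, the level was 128 ± 15.4 CPM in WT, between 179 ± 4.4 (*E1E2*) and 232 ± 12.2 (*E1*) in the 4 lines with an intact *G9a* and *Glp*, and 1744 ± 99.3 in *6KO1*, 1156 ± 36.7 in *6KO2* and 1059 ± 24.3 in *E1E2 G9Gl*, or 13.6, 9.04 and 8.28 times WT. The internal sums rest largely on IAPEz-int. Without it, the log2 ratio of the internal sum to WT was -0.012 in *E1E2*, so that this condition was no longer above WT, while *6KO2*, *6KO1* and *E1E2 G9Gl* stood at 2.97, 3.75 and 4.10, which changes the order of these 3. The plot of summed counts shows that the libraries of each of these last 3 conditions lay above those of the other 5 conditions in both sums, with *E1E2 G9Gl* and *6KO2* close together for the LTRs.

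**Figure D1:**
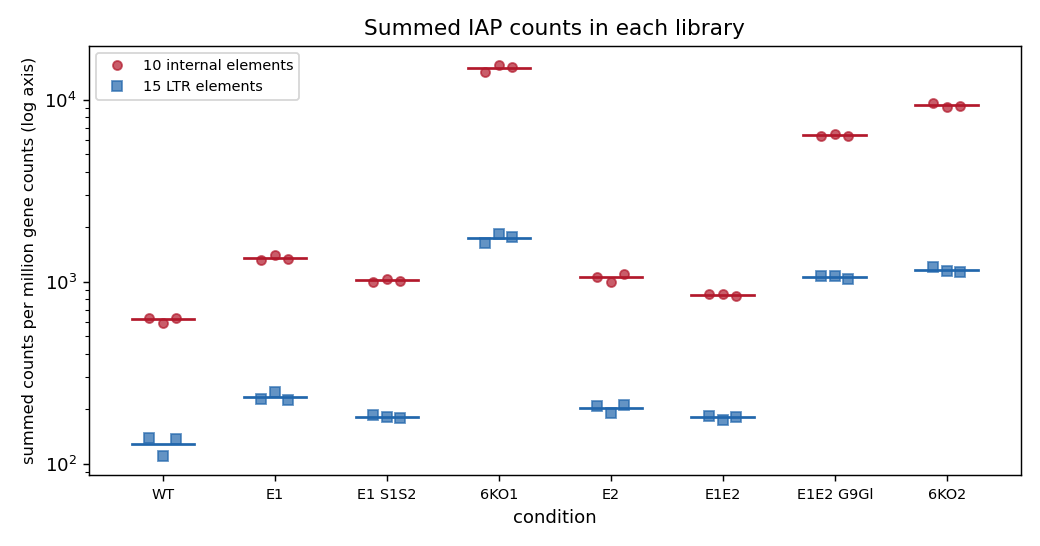
Summed normalized counts of the 10 internal (circles) and 15 LTR (squares) IAP elements in each of 24 libraries, in CPM on a log axis, with condition means as lines. Internal sums averaged 619.8 in WT and 6379, 9305 and 14865 in *E1E2 G9Gl*, *6KO2* and *6KO1*.

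The make-up of the IAP counts differed between conditions. IAPEz-int, the internal part of the most numerous class of full-length IAPs, gave 75.4 to 78.1% of the internal counts in WT, 87 to 87.3% in *6KO1* and 87.4 to 88.3% in *6KO2*, but 61.6 to 62% in *E1E2 G9Gl*. There IAP1-MM_I-int made up 15.9 to 16.1% of the internal counts and IAPLTR3-int 10 to 10.3%, against 0.406 to 0.489% and 0.351 to 0.532% in WT. In *E1 S1S2* the share of IAPLTR3-int was 11 to 11.4%. Among the LTR counts, IAPLTR1_Mm and IAPLTR1a_Mm together held 73.3 to 74.4% in *6KO1* and 74 to 74.5% in *6KO2*, and 43.3 to 43.5% in *E1E2 G9Gl*. All IAP elements took 16.1 to 19.3% of the ERVK counts in WT, 11.7 to 12.4% in *E1 S1S2*, 44.6 to 45.1% in *6KO2*, 36.2 to 37.8% in *6KO1* and 25.2 to 25.9% in *E1E2 G9Gl*. The share in *6KO2* was thus above that in *6KO1*, although the IAP level itself was lower.

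Each condition was compared with WT by edgeR's quasi-likelihood test, and an element was called when its fold change was at least 2 (1 on the log2 scale) at an adjusted p of at most 0.01. In *E1*, 11 of the 25 IAP elements rose (7 internal and 4 LTR) and 0 fell, where 4.64% of all 1207 repeat elements tested rose and 0.249% fell. In *E1 S1S2*, 8 rose (5 internal and 3 LTR) and 0 fell, against 6.46% and 0.746% of all repeat elements. In *E2*, 7 rose (5 and 2) and 0 fell, against 4.97% and 2.32%, and in *E1E2*, 8 rose (6 and 2) and 0 fell, against 5.55% and 1.57%. In *E1E2 G9Gl*, 21 rose (9 internal and 12 LTR) and 2 fell, against 41.3% and 2.07% of all repeat elements. In *6KO1*, 23 rose (9 and 14) and 0 fell, against 32.6% and 2.65%, and in *6KO2*, 20 rose (9 and 11) and 2 fell, against 22.5% and 2.15%. At an unadjusted p under 0.05 in the same test and in either direction, between 16 (*E1* and *E2*) and 25 (*6KO1*) of the 25 passed. Of all 1207 repeat elements, 252 passed this limit in *E1*, 335 in *E2* and 819 in *6KO1*. The libraries of every element called lay wholly above or below those of WT. The 7 comparisons share the same WT libraries.

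In medians over elements, the internal IAPs had higher fold changes than the LTRs in all 7 comparisons with WT. The median log2 fold change of the 10 internal elements in *E1*, *E1E2 G9Gl*, *6KO2* and *6KO1* was 1.33, 3.14, 3.82 and 4.46. For the 15 LTR elements it was 0.40, 1.53, 1.86 and 2.14 in the same conditions. The 245 other ERVK elements tested had medians of 0.21, 1.55, 0.82 and 1.25, and all 1207 repeat elements 0.10, 0.77, 0.28 and 0.56. The median of the IAP LTRs in *E1E2 G9Gl* was thus at that of the other ERVK elements, and in both 6KO lines it lay above. Scaling by gene counts puts the median of all repeat elements above 0, by up to 0.77 in *E1E2 G9Gl* and 0.56 in *6KO1*. With factors from the repeat counts alone, that median lay between -0.069 and 0.0042 in the 7 comparisons, and no IAP element that was called changed sign. Some called elements then fell under the fold change minimum, among them LTR elements in *E1E2 G9Gl*, as given below.

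**Figure D2:**
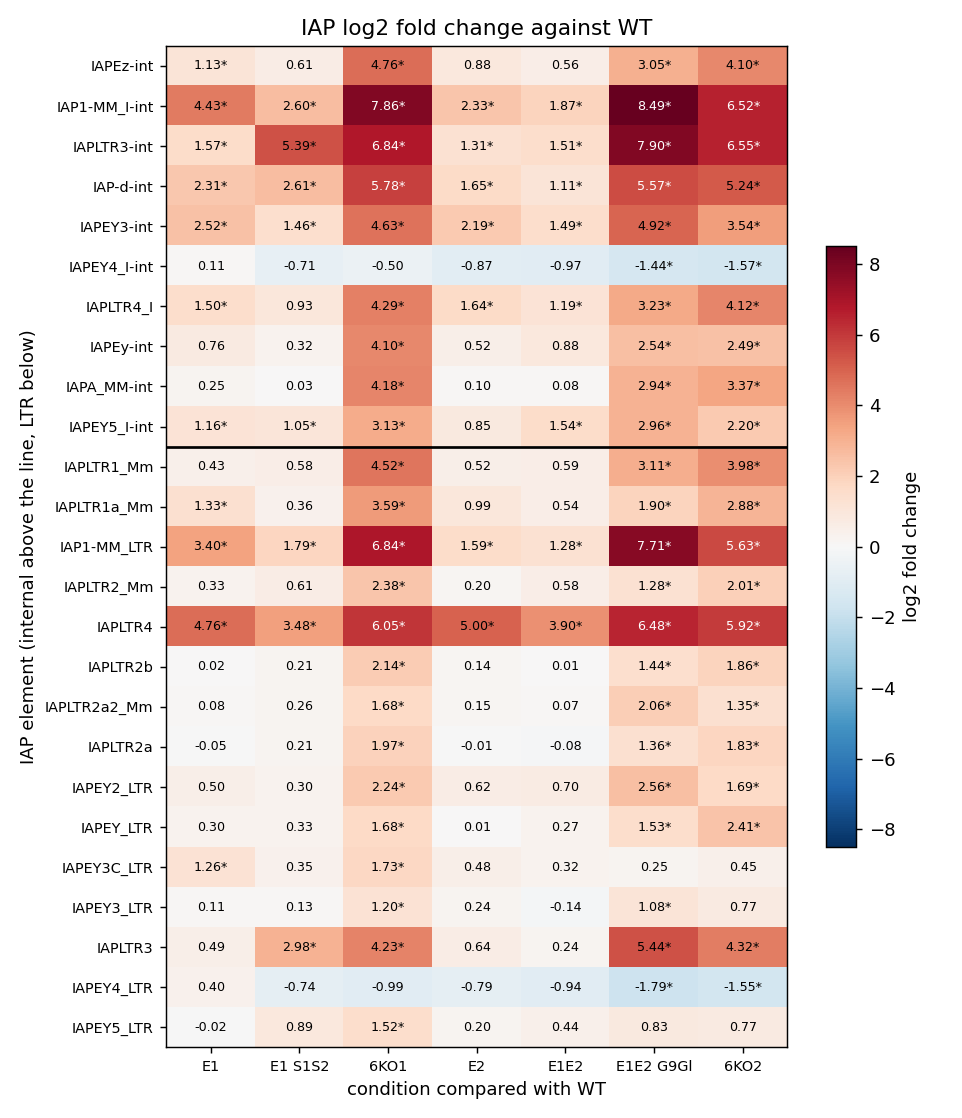
Log2 fold change against WT (colour and printed value) of the 25 IAP elements (rows, internal above the line and LTR below, each ordered by mean level) in 7 conditions (columns). Asterisks mark elements called, of which 23 rose in *6KO1*, and IAPEY4_I-int and IAPEY4_LTR are negative in 6 of the 7 columns.

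Of the internal elements, IAPEz-int had the highest counts. Its level in CPM was 491, 448 and 494 in WT, 1014, 1088 and 1026 in *E1*, 716, 740.3 and 726 in *E1 S1S2*, 889.8, 830.0 and 916 in *E2* and 717, 705 and 692 in *E1E2*. In *E1E2 G9Gl* it was 3896, 4013 and 3924, in *6KO2* 8395, 8045 and 8126 and in *6KO1* 12268, 13434 and 13141 CPM. All libraries of the mutant conditions were above those of WT, and the order of the means was WT, *E1E2*, *E1 S1S2*, *E2*, *E1*, *E1E2 G9Gl*, *6KO2*, *6KO1*. In that order only the ranges of *E1E2* and *E1 S1S2* overlapped. The log2 fold change against WT was 1.13 (SE 0.091, adjusted p = 2.1e-14) in *E1*, 3.05 (SE 0.097, adjusted p = 2.16e-30) in *E1E2 G9Gl*, 4.10 (SE 0.10, adjusted p = 1.47e-34) in *6KO2* and 4.76 (SE 0.11, adjusted p = 9.97e-37) in *6KO1*. The other 3 conditions, *E2*, *E1E2* and *E1 S1S2*, were at 0.88, 0.56 and 0.61, under the fold change minimum.

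**Figure D3:**
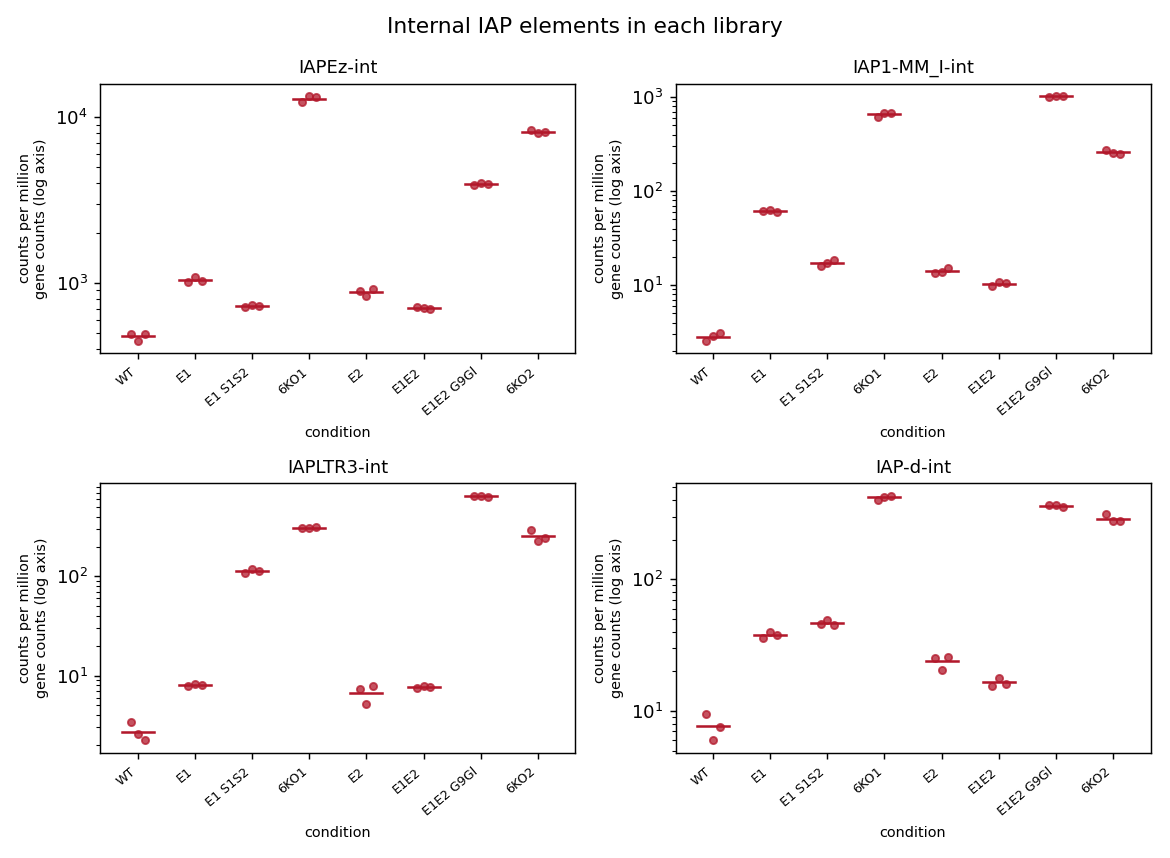
Levels in CPM (log axis) of the 4 internal IAP elements with the highest mean level, one point per library and a line at each condition mean. IAPEz-int and IAP-d-int peak in *6KO1*, IAP1-MM_I-int and IAPLTR3-int in *E1E2 G9Gl*, and IAPLTR3-int is at 114 in *E1 S1S2* against 8.05 in *E1*.

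IAP1-MM_I-int, the internal part that goes by name with the LTR IAP1-MM_LTR, was low in WT and had the highest fold change of the 25 in *6KO1* and *E1E2 G9Gl*. Its level in CPM was 2.57, 2.85 and 3.09 in WT, 60.7, 62.9 and 60.3 in *E1*, 16, 17.1 and 18.6 in *E1 S1S2*, 13.6, 14 and 15.3 in *E2* and 9.8, 10.8 and 10.5 in *E1E2*, the WT values resting on 61 to 79 counts. It was 275, 257 and 251 in *6KO2*, 616, 677 and 682 in *6KO1* and 1007, 1031 and 1019 in *E1E2 G9Gl*. Every mutant library was above every WT library, and *E1* stood above the other 3 conditions with *G9a* and *Glp*. The element rose in all 7 conditions, by 1.87 (SE 0.13, adjusted p = 4.46e-17) on the log2 scale in *E1E2*, 4.43 (SE 0.13, adjusted p = 9.47e-32) in *E1* and 8.49 (SE 0.15, adjusted p = 5.36e-41) in *E1E2 G9Gl*.

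IAPLTR3-int had another order. Its level in CPM was 3.37, 2.56 and 2.22 in WT, 7.91, 8.19 and 8.05 in *E1*, 7.28, 5.17 and 7.79 in *E2* and 7.47, 7.91 and 7.71 in *E1E2*, but 109, 119 and 113 in *E1 S1S2*. In the lines without *G9a* and *Glp* it was 293, 230.0 and 242 in *6KO2*, 305, 311 and 314 in *6KO1* and 652, 650.1 and 638 in *E1E2 G9Gl*. *E1 S1S2* was thus well above the other conditions with *G9a* and *Glp*, with no overlap. The log2 fold change against WT was 1.57 (SE 0.15, adjusted p = 3.09e-12) in *E1*, 5.39 (SE 0.15, adjusted p = 2.97e-32) in *E1 S1S2* and 7.90 (SE 0.16, adjusted p = 6.63e-38) in *E1E2 G9Gl*.

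IAP-d-int rose in all 7 conditions too. It had a CPM level of 9.51, 5.99 and 7.53 in WT, 36.1, 39.7 and 38.1 in *E1*, 46.2, 48.9 and 45.5 in *E1 S1S2*, 25.5, 20.6 and 25.9 in *E2* and 15.5, 17.9 and 16.1 in *E1E2*. In *E1E2 G9Gl* it was at 366, 371 and 355, in *6KO1* at 404, 426 and 433 and in *6KO2* at 316, 277 and 276 CPM. Its log2 fold change against WT ran from 1.11 (SE 0.13, adjusted p = 1.24e-09) in *E1E2* to 5.78 (SE 0.14, adjusted p = 9.8e-35) in *6KO1*. Neither 6KO line differed from *E1E2 G9Gl* by the fold change minimum, with 0.21 for *6KO1* and -0.33 for *6KO2*.

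Of the other 6 internal elements, IAPEY3-int rose in all 7 conditions, from 8.46 ± 1.22 CPM in WT to 48.4 ± 3.68 in *E1* and 256 ± 2.64 in *E1E2 G9Gl*. IAPLTR4_I rose in 6 conditions, from 8.18 ± 0.882 CPM to 159.5 ± 10.1 in *6KO1*, with *E1 S1S2* (log2 fold change 0.93) as the exception. IAPEY5_I-int, with 13 to 20 counts per WT library, rose in 6 conditions and was at 0.85 in *E2*. IAPEy-int and IAPA_MM-int rose in the 3 lines without *G9a* and *Glp* and were not called in the other 4 conditions. IAPEy-int went from 3.24 ± 0.629 CPM in WT to 55.4 ± 3.4 in *6KO1*, 18.2 ± 1.58 in *6KO2* and 18.9 ± 1.03 in *E1E2 G9Gl*. IAPA_MM-int went from 1.24 ± 0.273 to 22.6 ± 1.44, 13 ± 0.985 and 9.64 ± 0.497 CPM in the same lines, and in the 4 conditions with *G9a* and *Glp* its log2 fold change was at most 0.25.

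IAPEY4_I-int went the other way. Its level in CPM was 103, 116 and 103 in WT, 111, 123 and 113 in *E1*, 65.6, 66.5 and 64.6 in *E1 S1S2*, 47.5, 67.2 and 60.7 in *E2* and 53.5, 57.2 and 54.1 in *E1E2*. In *6KO1* it was 77.4, 74.9 and 75.6, in *6KO2* 35, 37.2 and 36 and in *E1E2 G9Gl* 41.4, 41.9 and 35.6 CPM. WT and *E1* overlapped, and all libraries of the other 6 conditions lay below both. The element fell in *E1E2 G9Gl*, to a log2 value of -1.44 (SE 0.10, adjusted p = 5.2e-17) against WT, and in *6KO2*, with -1.57 (SE 0.10, adjusted p = 5.25e-18). In WT it made up 72.9 to 79% of the internal counts outside IAPEz-int, and 1.47 to 1.7% in *E1E2 G9Gl*. Under repeat-only factors it also passed in *6KO1* (-1.16), *E2* (-1.04) and *E1E2* (-1.15).

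The LTR elements hold the promoters, and their counts come from solitary LTRs as well as from the ends of full-length copies. IAPLTR1_Mm had a CPM level of 41.8, 35 and 44.7 in WT, 52.8, 56.2 and 54.3 in *E1*, 62.5, 60 and 59.5 in *E1 S1S2*, 60.7, 54.2 and 59.1 in *E2* and 65.6, 59.5 and 58.2 in *E1E2*. It was at 349, 355 and 341 in *E1E2 G9Gl*, 659, 634 and 627 in *6KO2* and 869.5, 985 and 935 in *6KO1*. The 4 conditions with *G9a* and *Glp* lay above WT in every library yet within 0.59 on the log2 scale, and the element rose in the other 3, by 3.11 (SE 0.11, adjusted p = 3.33e-28), 3.98 (SE 0.12, adjusted p = 8.59e-32) and 4.52 (SE 0.12, adjusted p = 9.91e-34). IAPLTR1a_Mm had a CPM level of 30.7, 26.8 and 31.4 in WT, 72.9, 78.7 and 72.1 in *E1*, 38.5, 38.7 and 36.7 in *E1 S1S2*, 59.1, 56 and 61.6 in *E2* and 44.9, 40.9 and 43 in *E1E2*. In *E1E2 G9Gl* it was at 113, 113 and 106, in *6KO2* at 229, 213 and 212 and in *6KO1* at 331, 378 and 359.8 CPM. It rose in *E1* as well, by 1.33 (SE 0.10, adjusted p = 5.62e-15). In *E2* it stood at 0.99, just under the fold change minimum, and it passed there when any of WT replicate 1, WT replicate 3 or *E2* replicate 2 was left out.

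IAP1-MM_LTR followed IAP1-MM_I-int. Its level in CPM was 1.98, 1.69 and 1.82 in WT, 18.1, 18.6 and 21.1 in *E1*, 6.03, 6.65 and 6.39 in *E1 S1S2*, 5.31, 4.92 and 6.38 in *E2* and 4.4, 3.85 and 5.06 in *E1E2*, and 91.6, 92.1 and 88.5 in *6KO2*, 192, 215 and 223 in *6KO1* and 381, 393 and 374 in *E1E2 G9Gl*. No mutant library overlapped WT, and the log2 fold change was 3.40 (SE 0.14, adjusted p = 7.85e-26) in *E1* and 7.71 (SE 0.15, adjusted p = 1.91e-39) in *E1E2 G9Gl*. IAPLTR2_Mm rose in the 3 lines without *G9a* and *Glp* and was not called in the other 4 conditions. It had a CPM level of 13.1, 9.19 and 11.2 in WT, 12.8, 17.6 and 11.7 in *E1*, 17.9, 16.3 and 16.7 in *E1 S1S2*, 12.8, 13.3 and 12.1 in *E2* and 16.4, 17.2 and 16.4 in *E1E2*, with WT overlapping *E1* and *E2*, and at 28.1, 26.8 and 26 in *E1E2 G9Gl*, 47.6, 41.7 and 45.2 in *6KO2* and 57.5, 59.4 and 57.1 in *6KO1*. Its log2 fold changes in these last 3 were 1.28, 2.01 and 2.38. Under repeat-only factors it was at 0.44 in *E1E2 G9Gl*, under the minimum.

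IAPLTR4 had a CPM level of 0.673, 0.541 and 0.476 in WT, which is 12 to 16 counts per library. It was at 15.2, 16 and 14.7 in *E1*, 5.97, 6.44 and 6.5 in *E1 S1S2*, 20.2, 15 and 19.2 in *E2* and 6.61, 9.4 and 9.39 in *E1E2*, and at 39.8, 30.9 and 32.1 in *6KO2*, 35.6, 39.1 and 37.8 in *6KO1* and 50.7, 50.7 and 49.8 in *E1E2 G9Gl*. All mutant libraries were far above WT, and the range over the 7 mutant conditions was narrower than that of IAP1-MM_LTR. The log2 fold change was 3.48 (SE 0.20, adjusted p = 1.02e-19) in *E1 S1S2*, 4.76 (SE 0.18, adjusted p = 1.65e-26) in *E1*, 5.0 (SE 0.18, adjusted p = 1.52e-27) in *E2* and 6.48 (SE 0.17, adjusted p = 1.87e-33) in *E1E2 G9Gl*. IAPLTR4 and IAP1-MM_LTR were the LTR elements that rose in all 7 conditions.

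Of the other 10 LTR elements, IAPLTR3 rose in *E1 S1S2* and in the 3 lines without *G9a* and *Glp*, with no overlap with WT (4 to 16 counts) there. Its CPM level was 0.673, 0.144 and 0.436 in WT, 0.424, 0.819 and 0.486 in *E1*, 3.25, 3.33 and 3.16 in *E1 S1S2*, 0.752, 0.602 and 0.563 in *E2* and 0.272, 0.568 and 0.612 in *E1E2*, and 8.82, 8.31 and 7.46 in *6KO2*, 8.12, 7.32 and 7.61 in *6KO1* and 19.9, 18.9 and 14.5 in *E1E2 G9Gl*. IAPEY3C_LTR rose in *E1* and *6KO1*, by 1.26 and 1.73, and stood at 0.25 in *E1E2 G9Gl* and 0.45 in *6KO2*. IAPLTR2a, IAPLTR2a2_Mm, IAPLTR2b, IAPEY2_LTR and IAPEY_LTR rose in *E1E2 G9Gl*, *6KO1* and *6KO2*, with log2 fold changes of 1.35 to 2.56, and in none of the other 4 conditions. Under repeat-only factors IAPLTR2a, IAPLTR2b and IAPEY_LTR were at 0.52, 0.60 and 0.68 in *E1E2 G9Gl*, under the minimum. IAPEY3_LTR rose in *6KO1* and *E1E2 G9Gl* by 1.2 and 1.08, and IAPEY5_LTR, with 4 to 34 counts per library, rose in *6KO1* by 1.52. These calls were also lost under repeat-only factors, with IAPEY3_LTR at 0.57 and 0.24 and IAPEY5_LTR at 0.90. IAPEY4_LTR fell in *E1E2 G9Gl* and *6KO2*, as IAPEY4_I-int did, and its highest libraries were those of *E1*. In *6KO1* it stood at -0.99, just short of the minimum. It passed there when any of WT replicate 1, WT replicate 3 or *6KO1* replicate 1 was left out, and under repeat-only factors (-1.64). Its CPM level was 4.25, 4.98 and 4.52 in WT, 5.98, 6.04 and 6.11 in *E1*, 3, 2.61 and 2.59 in *E1 S1S2*, 2.44, 3.72 and 1.6 in *E2* and 2.37, 1.84 and 2.94 in *E1E2*, and 1.39, 1.53 and 1.79 in *6KO2*, 2.64, 2.13 and 2.12 in *6KO1* and 1.45, 1.14 and 1.38 in *E1E2 G9Gl*.

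The same 4-OHT treatment was given to the parent line (*E1* against WT) and to the *Eset2*-mutant clone A4 (*E1E2* against *E2*), which sets the effect of 4-OHT with and without *Eset2* side by side. The counts of *Setdb1*, the gene of ESET, went from 60.4 ± 2.87 CPM in WT to 40.7 ± 2.09 in *E1*, but were 48.7 ± 7.71 in *E2* and 48.8 ± 1.71 in *E1E2*. A fall of *Setdb1* with 4-OHT was thus seen in the parent and not in the clone, so these counts do not show that *Eset1* was lost in *E1E2*, and the part of this in the results below was not tested. In the clone, 0 of the 25 IAP elements rose and 1 fell, against 0.414% and 0.414% of all repeat elements. At an unadjusted p under 0.05 in the same test, 12 of the 25 passed in either direction, against 150 of all 1207 repeat elements. The element that fell was IAPLTR4, at -1.10 (SE 0.12, adjusted p = 3.67e-09). It stood at -0.94 when *E1E2* replicate 1 was left out. For IAPEz-int the change was -0.32, for IAP1-MM_I-int -0.46 and for IAP-d-int -0.54. The difference between the 4-OHT effects passed the test for 10 elements, all with a lower effect in the clone, where 4.39% of all repeat elements did so. It was -5.86 (SE 0.23, adjusted p = 1.76e-26) on the log2 scale for IAPLTR4 and -4.90 (SE 0.17, adjusted p = 1.42e-28) for IAP1-MM_I-int. IAPEz-int differed by -1.44 (SE 0.13, adjusted p = 5.24e-13). The clone differed from WT before 4-OHT: 7 IAP elements were already higher in *E2*, IAPLTR4 among them. *E1E2* set directly against *E1* had 0 elements higher and 6 lower (1.08% and 1.16% of all repeat elements). These were IAP1-MM_I-int (-2.56), IAP1-MM_LTR (-2.12), IAP-d-int (-1.2), IAPEY3-int (-1.03), IAPEY4_I-int (-1.07) and IAPEY4_LTR (-1.34). Without *E1* replicate 2, IAPEY3-int stood at -0.98.

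*E1 S1S2*, with *Suv39h1* and *Suv39h2* disrupted next to *Eset1*, differed from *E1* in both directions over the IAP elements. As *E1 S1S2* is a single clone, the disruption and the clone cannot be told apart. IAPLTR3-int and IAPLTR3 were higher, by 3.82 (SE 0.13, adjusted p = 4.16e-27) and 2.49 (SE 0.25, adjusted p = 2.99e-11) on the log2 scale. IAP1-MM_I-int (-1.83), IAP1-MM_LTR (-1.60), IAPLTR4 (-1.28), IAPEY4_LTR (-1.14) and IAPEY3-int (-1.06) were lower. Of the 25 elements 2 rose and 5 fell, against 1.49% and 1.16% of all repeat elements. IAPEz-int was at 727 ± 12.3 CPM in *E1 S1S2* and 1043 ± 39.6 in *E1*, a log2 difference of -0.52 that did not reach the fold change minimum. With *Eset2*, *G9a* and *Glp* also disrupted in the same lineage (*6KO1* against *E1 S1S2*), 22 elements rose and 0 fell, against 23.7% and 0.497%. IAPEz-int rose by 4.15 (SE 0.10, adjusted p = 3.69e-34), and IAPLTR3-int, already high in *E1 S1S2*, by 1.45 (SE 0.12, adjusted p = 7.02e-15).

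In the other lineage, *E1E2* and *E1E2 G9Gl* differ in *G9a* and *Glp*. Here 20 of the 25 IAP elements rose and 0 fell, against 33.6% and 0.994% of all repeat elements. IAP1-MM_I-int rose by 6.62 (SE 0.13, adjusted p = 3.03e-38), IAP1-MM_LTR by 6.43 (SE 0.13, adjusted p = 2.42e-37) and IAPLTR3-int by 6.39 (SE 0.15, adjusted p = 2.35e-35). IAP-d-int rose by 4.46, IAPLTR1_Mm by 2.51 and IAPEz-int by 2.48 (SE 0.095, adjusted p = 6.48e-27). The 5 elements not called were IAPEY4_I-int (-0.47), IAPEY4_LTR (-0.85), IAPEY3C_LTR (-0.07), IAPEY5_LTR (0.39) and IAPLTR2_Mm (0.69). When factors came from the repeat counts alone, 13 rose and 2 fell (IAPEY4_I-int and IAPEY4_LTR).

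*6KO2* has *Suv39h1* and *Suv39h2* disrupted on top of the 4 genes of *E1E2 G9Gl*, and is a further clone. Against *E1E2 G9Gl*, the share of IAP elements that fell was near that of all repeat elements. In all, 1 of 25 rose and 5 fell, against 1.82% and 16.7% of all repeat elements, and with factors from the repeat counts alone 6 were higher and 2 lower. IAPEz-int rose, by 1.05 (SE 0.091, adjusted p = 1.1e-13). IAP1-MM_LTR fell, at -2.08 (SE 0.11, adjusted p = 1.44e-21), as did IAP1-MM_I-int (-1.96), IAPEY3-int (-1.38), IAPLTR3-int (-1.34) and IAPLTR3 (-1.12). IAPLTR1a_Mm, IAPLTR4_I and IAPLTR1_Mm were at 0.98, 0.90 and 0.88, just under the minimum. *6KO1*, which is of the other lineage, differed from *E1E2 G9Gl* by 8 elements higher and 2 lower, against 3.81% and 9.94%, and by 10 and 0 with factors from the repeat counts alone. Higher was IAPEz-int, by 1.71 (SE 0.093, adjusted p = 1.93e-20). Also higher were IAPLTR1a_Mm (1.69), IAPEy-int (1.55), IAPEY3C_LTR (1.49), IAPLTR1_Mm (1.42), IAPA_MM-int (1.23), IAPLTR2_Mm (1.10) and IAPLTR4_I (1.06). Lower were IAPLTR3 (-1.21) and IAPLTR3-int (-1.06). These comparisons share the *E1E2 G9Gl* libraries, in which *Suv39h2* transcripts were below those of *6KO2* (14.2 against 20.3 CPM).

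**Figure D4:**
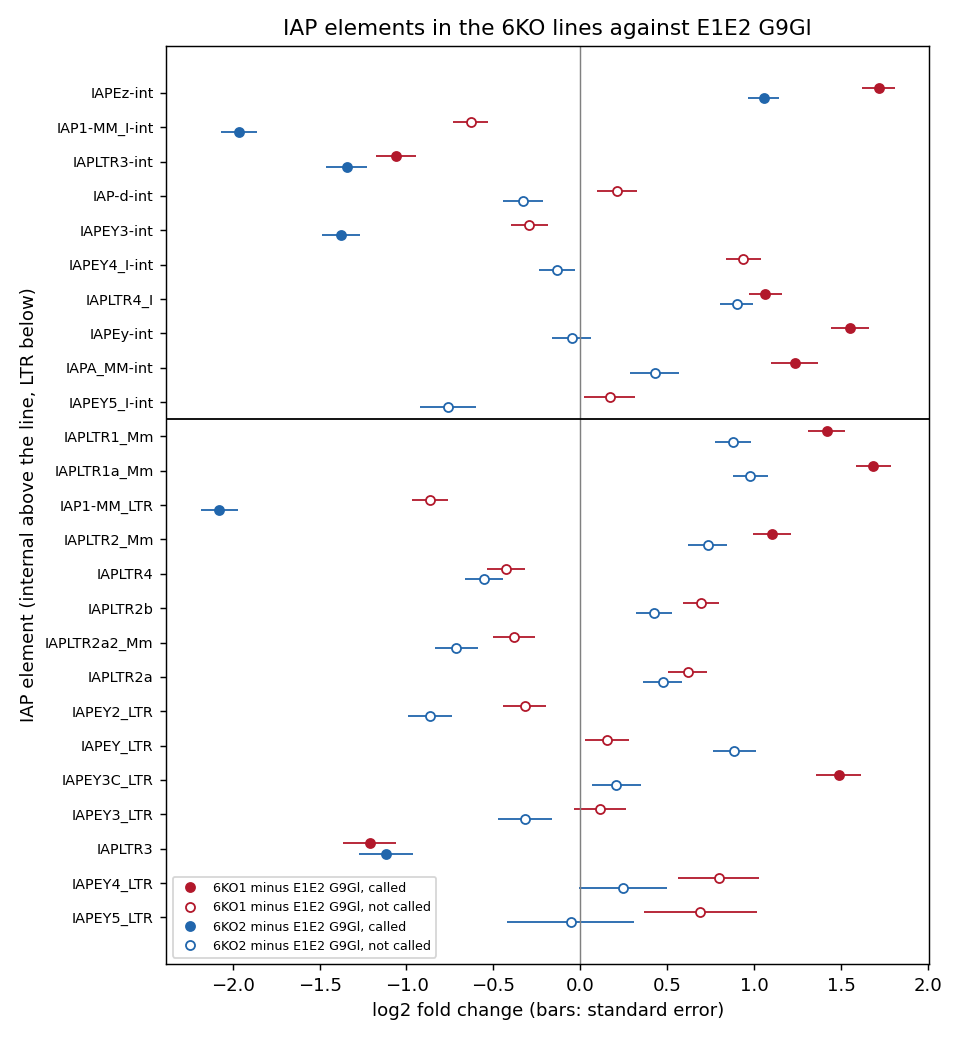
Log2 fold change of the 25 IAP elements in *6KO1* (red) and *6KO2* (blue) against *E1E2 G9Gl*, with bars for the standard error and filled points for elements called. IAPEz-int lies to the right of 0 in both lines (1.71 and 1.05), and IAPLTR3-int and IAPLTR3 lie to the left in both.

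The effect of the Suv39h pair was set against its effect in the *Eset1* background, as the difference between (*6KO2* against *E1E2 G9Gl*) and (*E1 S1S2* against *E1*). It passed the test for 7 elements, 5 with a higher and 2 with a lower effect in the background without *Eset2*, *G9a* and *Glp*, where 1.57% and 19.1% of all repeat elements did so. IAPLTR3-int had a difference of -5.16 (SE 0.18, adjusted p = 7.97e-28), having risen in one background and fallen in the other. IAPEz-int had a difference of 1.57 (SE 0.13, adjusted p = 3.54e-14). For IAP1-MM_I-int, which fell in both, it was -0.13 (SE 0.15, adjusted p = 0.441). With factors from the repeat counts alone the split was 11 higher and 2 lower. Both lines without any of the 6 genes (*6KO1* and *6KO2*) differed by 6 IAP elements higher in *6KO1* and 0 lower, against 5.05% and 1.41% of all repeat elements. These were IAPEy-int (1.60), IAP1-MM_I-int (1.34), IAPEY3C_LTR (1.28), IAP1-MM_LTR (1.21), IAPEY3-int (1.08) and IAPEY4_I-int (1.07). When factors came from the repeat counts alone, 2 were higher and 1 lower. IAPEz-int was 0.66 higher, with no overlap between the libraries.

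Internal and LTR elements of one name did not always move together. For IAPLTR4 there were 14.8 ± 2.73 internal counts per LTR count in WT, 1.5 ± 0.0741 in *E1*, 1.42 ± 0.122 in *E2*, 1.51 ± 0.0472 in *E1E2 G9Gl* and 4.25 ± 0.0815 in *6KO1*. The internal element IAPLTR4_I had a CPM level of 8.84, 7.18 and 8.52 in WT, 23.2, 25.1 and 20.9 in *E1*, 14.7, 16.7 and 15.4 in *E1 S1S2*, 26, 22.9 and 27.8 in *E2* and 17.7, 19.3 and 18.8 in *E1E2*, and of 151, 137 and 140.2 in *6KO2*, 148, 167 and 163 in *6KO1* and 74.9, 79.5 and 74.6 in *E1E2 G9Gl*. Its libraries were above WT in every mutant condition, and its log2 fold change in *E1 S1S2*, where IAPLTR4 rose by 3.48, was 0.93. The LTR of this name thus had the higher fold change in all 7 comparisons with WT. For IAPEY3 it was the internal element. IAPEY3-int had a CPM level of 9.38, 7.07 and 8.92 in WT, 44.4, 51.6 and 49.1 in *E1*, 23.7, 23.6 and 22.3 in *E1 S1S2*, 42.4, 31.2 and 42.5 in *E2* and 23.1, 23.2 and 25 in *E1E2*, and of 106, 92.6 and 96.9 in *6KO2*, 203, 210.4 and 212 in *6KO1* and 256, 253 and 258 in *E1E2 G9Gl*, all above WT. IAPEY3_LTR had a CPM level of 4.67, 3.82 and 4.12 in WT, 4.67, 5.34 and 3.58 in *E1*, 4.76, 4.47 and 4.51 in *E1 S1S2*, 4.46, 4 and 6.47 in *E2* and 4.71, 2.97 and 3.71 in *E1E2*, and of 6.13, 7.72 and 7.63 in *6KO2*, 9.51, 9.45 and 9.92 in *6KO1* and 9.97, 8.31 and 8.39 in *E1E2 G9Gl*. WT overlapped *E1*, *E1 S1S2*, *E2* and *E1E2* for this LTR. The ratio of their counts was 2.01 ± 0.157 in WT, 11 ± 2.4 in *E1* and 29 ± 2.84 in *E1E2 G9Gl*. IAPEY3-int rose in all 7 conditions and IAPEY3_LTR in 2.

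**Figure D5:**
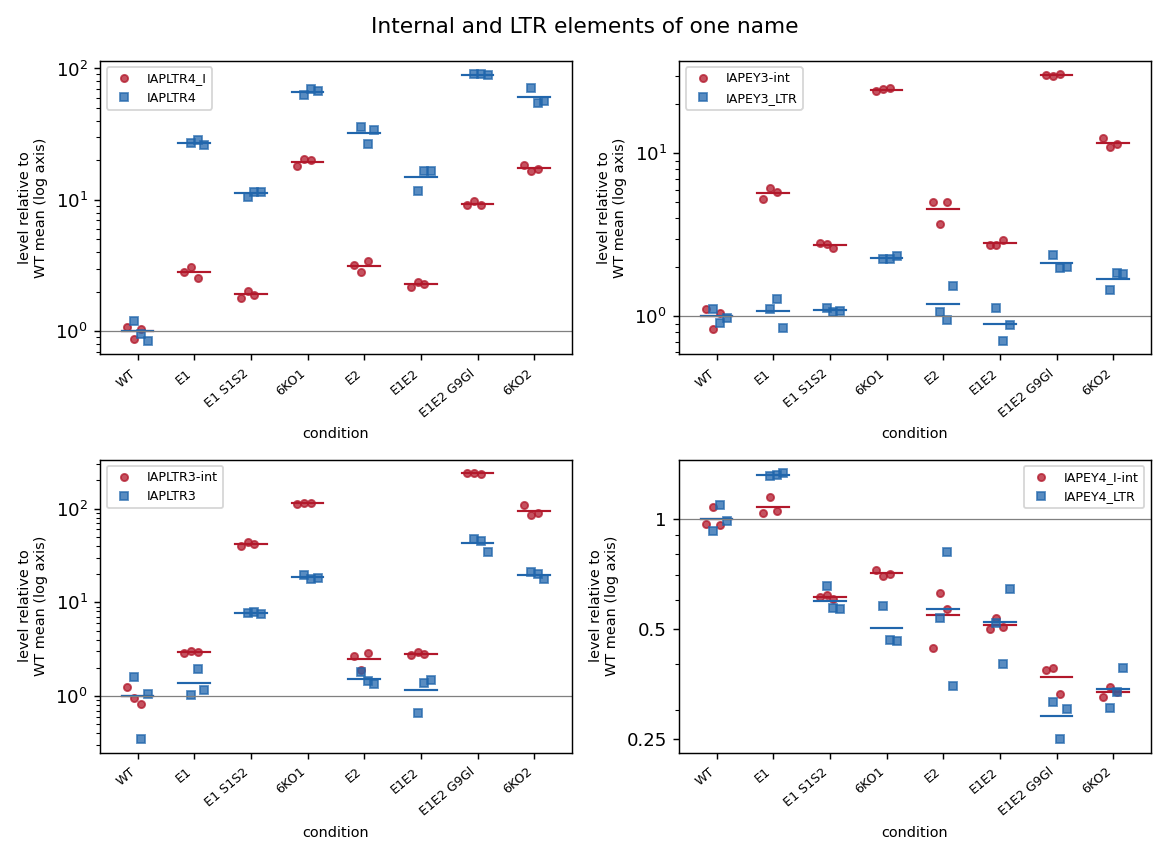
Level relative to the WT mean (log axis) of the internal element (circles) and the LTR element (squares) of 4 names, one point per library and lines at condition means. IAPLTR4 lies above IAPLTR4_I in all 7 mutant conditions, IAPEY3-int and IAPLTR3-int lie above their LTRs, and both IAPEY4 elements lie below WT except in *E1*.

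IAPLTR3-int likewise rose in 3 conditions in which IAPLTR3 did not. In *E1* the log2 fold changes were 1.57 and 0.49, in *E2* 1.31 and 0.64, and in *E1E2* 1.51 and 0.24, with 7 to 21 counts of the LTR per library. IAPEy-int and IAPEY_LTR rose in the same 3 conditions, but in *6KO1* the internal element gained more and in *6KO2* about as much as the LTR. IAPEy-int had a CPM level of 2.86, 2.88 and 3.96 in WT, 5.44, 5.57 and 5.38 in *E1*, 3.93, 3.93 and 4.26 in *E1 S1S2*, 3.99, 4.21 and 5.82 in *E2* and 5.68, 5.77 and 6.45 in *E1E2*, and of 19.3, 16.4 and 19 in *6KO2*, 51.8, 56 and 58.5 in *6KO1* and 19.8, 19 and 17.8 in *E1E2 G9Gl*. Its counts per count of IAPEY_LTR were 1 ± 0.0946 in WT, 5.39 ± 0.275 in *6KO1* and 1.07 ± 0.0982 in *6KO2*. For IAP1-MM the ratio was 1.56 ± 0.226 in WT and lay between 2.37 ± 0.377 (*E1E2*) and 3.2 ± 0.297 (*E1*) in the others, and the pair had the same calls in all 15 comparisons. IAPEz-int had 11.9 ± 0.877 counts per count of IAPLTR1_Mm, an LTR it is known to carry, in WT, 19.2 ± 0.237 in *E1* and 13.9 ± 0.258 in *6KO1*. This ratio leaves out IAPLTR1a_Mm, whose log2 fold change in *E1* was 1.33 against 0.43 for IAPLTR1_Mm. It therefore does not compare IAPEz-int with all its LTR counts. How reads that fit several elements were shared between them was not tested here.

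IAPEY_LTR, the 1 element with its highest mean in *6KO2*, had a CPM level of 3.2, 2.74 and 3.73 in WT, 3.39, 4.13 and 4.31 in *E1*, 3.99, 3.72 and 4.4 in *E1 S1S2*, 3.05, 3.65 and 2.96 in *E2* and 3.5, 4.07 and 4.04 in *E1E2*, and of 18.2, 16.9 and 16.2 in *6KO2*, 9.58, 11 and 10.3 in *6KO1* and 9.12, 8.67 and 10 in *E1E2 G9Gl*. The IAPEY5 pair had low counts throughout. IAPEY5_I-int had a CPM level of 0.842, 0.649 and 0.515 in WT, 1.35, 1.56 and 1.56 in *E1*, 1.42, 1.32 and 1.39 in *E1 S1S2*, 1.13, 1.1 and 1.41 in *E2* and 1.87, 2.05 and 1.92 in *E1E2*, and of 3.06, 3.34 and 2.84 in *6KO2*, 5.49, 6.15 and 5.95 in *6KO1* and 4.26, 5.62 and 5.83 in *E1E2 G9Gl*, and all its mutant libraries were above WT. IAPEY5_LTR had a CPM level of 0.505, 0.325 and 0.238 in WT, 0.154, 0.39 and 0.486 in *E1*, 0.618, 0.644 and 0.71 in *E1 S1S2*, 0.282, 0.602 and 0.282 in *E2* and 0.506, 0.393 and 0.531 in *E1E2*, and of 0.49, 0.903 and 0.436 in *6KO2*, 0.833, 0.928 and 1.31 in *6KO1* and 0.852, 0.548 and 0.46 in *E1E2 G9Gl*. For this LTR, WT was overlapped by *E1*, *E2*, *E1E2*, *E1E2 G9Gl* and *6KO2*.

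By the condition of highest mean, the 25 elements fell into groups. *6KO1* was highest for 6 internal and 8 LTR elements, IAPEz-int, IAPLTR1_Mm and IAPLTR1a_Mm among them. *E1E2 G9Gl* was highest for 3 internal elements (IAP1-MM_I-int, IAPLTR3-int and IAPEY3-int) and 5 LTR elements (IAP1-MM_LTR, IAPLTR3, IAPLTR4, IAPEY2_LTR and IAPLTR2a2_Mm). *6KO2* was highest for IAPEY_LTR, and *E1* for both IAPEY4 elements. For IAPEY3-int, IAPLTR4, IAPLTR2a2_Mm, IAPEY2_LTR, IAP1-MM_I-int and IAP1-MM_LTR, the difference between *6KO1* and *E1E2 G9Gl* did not reach the fold change minimum (log2 difference -0.29, -0.43, -0.38, -0.32, -0.63 and -0.87). Among the elements highest in *6KO1*, this difference was likewise not called for IAP-d-int, IAPEY5_I-int, IAPEY3_LTR, IAPEY5_LTR, IAPLTR2a and IAPLTR2b.

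Across the 8 condition means, on the scale of log2(CPM + 1), the IAP elements whose levels were most like those of IAPEz-int were IAPLTR1_Mm (Pearson r = 0.990), IAPLTR4_I (0.986) and IAPA_MM-int (0.985). IAPLTR4 had 0.798, IAPLTR3-int 0.814, IAPEY4_I-int -0.466 and IAPEY4_LTR -0.597. Outside the IAP elements, RLTRETN_Mm (0.981), RLTR10F (0.973), ERVB7_2B-LTR_MM (0.972), LTRIS6 (0.969) and MMERVK9E_I-int (0.967) came closest. All 5 belong to ERVK except LTRIS6, which is of the ERV1 family. The points are 8 condition means that share libraries and scaling with IAPEz-int, so the coefficients are a description with no test. In *6KO1* the log2 fold change of these 5 was 1.95, 3.45, 2.48, 3.74 and 1.90, against 4.76 for IAPEz-int. In *E1* none of the 5 was called, but LTRIS6 stood at 1.82 (SE 0.56, adjusted p = 0.0218), above the 1.13 of IAPEz-int, and missed the limit on p.

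Genes known to act in silencing IAPs were examined beside the elements: 22 were listed, 21 were found and all 21 were tested. In *E1*, *E1 S1S2*, *E2* and *E1E2*, 2 rose and 0 fell, where 2.27%, 6.65%, 2.9% and 5.51% of 18565 genes rose and 1.99%, 5.11%, 3.21% and 3.22% fell. These 2 were *Atf7ip*, whose product stabilizes ESET in the nucleus, and *Resf1*, whose product also acts with ESET on retroviruses. *Atf7ip* rose from 71.1 ± 11.8 CPM in WT to between 212 ± 5.05 (*E1 S1S2*) and 307 ± 17.2 (*6KO1*), a log2 difference of 1.73 (SE 0.085, adjusted p = 2.65e-13) in *E1*. *Resf1* rose from 174 ± 2.94 CPM to between 711 ± 38.5 (*6KO2*) and 1193 ± 64.0 (*E1E2*), with 2.11 (SE 0.071, adjusted p = 2.71e-16) in *E1*. Both rose in all 7 conditions, which share the WT libraries. In *6KO1* 4 of the 21 rose and 0 fell (background 20.6% and 10.2%), in *E1E2 G9Gl* 3 rose and 1 fell (16.8% and 8.41%), and in *6KO2* 3 rose and 0 fell (15.3% and 5.39%). *Morc3*, which is needed for ERV silencing, was 1 of those that rose in *6KO1* and *E1E2 G9Gl*, by 1.19 (SE 0.095, adjusted p = 1.15e-10) and 1.36 (SE 0.096, adjusted p = 1.27e-11). *Zfp989*, a KRAB zinc-finger gene, had 0 to 1 counts in WT, 86 to 110 in *6KO1*, 47 to 59 in *6KO2* and 0 in *E1E2 G9Gl*. *Trim28* (log2 fold change -0.70 to 0.21), *Dnmt1* (-0.26 to 0.36) and *Uhrf1* (0.06 to 0.30), the corepressor that recruits ESET and the enzyme and cofactor of maintenance DNA methylation, were not called in any comparison with WT.

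The targeted genes differed in how far their transcripts were lowered. *Setdb1* (*Eset1*) stood at -0.57 (SE 0.078, adjusted p = 6.82e-06) on the log2 scale in *E1*, and at -0.31 in both *E2* and *E1E2*, and fell in *E1E2 G9Gl*, with -1.19 (SE 0.08, adjusted p = 6.19e-12). *Setdb2* (*Eset2*) fell in *E2*, with -1.36 (SE 0.09, adjusted p = 4.34e-11). *Ehmt2* (*G9a*) and *Ehmt1* (*Glp*) fell in *6KO1*, to -1.32 and -1.05, and in *E1E2 G9Gl*, to -1.69 and -1.40, whereas *6KO2* stood at -0.56 and -0.95. *Suv39h1* was at 110 ± 2.28 CPM in WT. Where it is disrupted, it was at 49.9 ± 0.595 (*E1 S1S2*), 33.1 ± 1.48 (*6KO1*) and 62.9 ± 0.8 CPM (*6KO2*). In *E1E2 G9Gl*, where it is not disrupted, *Suv39h1* was at 79.5 ± 2.09 CPM. *Suv39h2* was at 0.76 in *E1 S1S2*, where it is disrupted. In *E1E2 G9Gl*, where it is not, it fell to -1.47 (SE 0.08, adjusted p = 1.07e-13), with 14.2 ± 0.321 CPM against 39.5 ± 3.38 in WT and 20.3 ± 1.6 in *6KO2*. Counts over a whole gene do not show a frameshift or the loss of single exons, so these values do not check the genotypes.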

How the data were processed

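Total RNA of 24 MEF libraries (TruSeq, stranded, paired-end) was sequenced. Per the study's methods and the submitters' processing notes, the authors trimmed reads with cutadapt 1.8.1, aligned them to GRCm38 with STAR 2.5.2b and ran TEtranscripts for the counting, in which a read with several matches is divided over the copies. The strand setting is not given in the sources used here. The deposited values are raw read counts, whole numbers summed over all copies of an element. Genome positions of single copies were not analysed here. 1 malformed entry (459 to 786 counts per library) was left out.

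Counts were tested with edgeR 4.0.16 (quasi-likelihood, R 4.3.3) on all 24 libraries, with 1 coefficient per condition. TMM factors and totals came from the gene counts and were applied to the repeat elements. After edgeR's filterByExpr, 1207 of 1445 repeat elements and 18565 of 47937 genes were tested, with Benjamini-Hochberg adjustment over each table. Calls needed a 2-fold difference or more (1 on the log2 scale) with an adjusted p no higher than 0.01. SE is the absolute log2 fold change over the square root of F. The paper calls the replicates of a cell line biological, but no label says that they are separate cultures, so p-values measure the spread between these libraries. The script was tested on simulated data. Alternatives were DESeq2 1.42.0, other factors and filters, left-out libraries and a replicate block. Values in every library are given for the 4 internal and 5 LTR elements of highest mean, and for names whose internal and LTR elements differed in call. The IAP elements, gene lists and tests were chosen with earlier results of these data known.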

Additional observations from a re-analysis of the deposited data

Results flagged for a closer look

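Every result in this section is a difference between the effects of one treatment or gene pair in different lines, tested as an interaction in edgeR over all repeat elements and past the same limits as above. Values are on the log2 scale, and each line is 1 clone, so that a difference between genotypes cannot be told apart from a difference between clones.

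The effect of 4-OHT was lower in the *Eset2*-mutant clone (*E1E2* against *E2*) than in the parent (*E1* against WT) for 10 IAP elements. *Setdb1* counts were also lower after 4-OHT in the parent (60.4 CPM in WT and 40.7 in *E1*) and not in the clone (48.7 CPM in *E2* and 48.8 in *E1E2*), and the part of this in the differences was not tested. Such counts do not check the deletion of *Eset1*, which the paper reports from western blots. Given as the difference and the effects in the parent and in the clone, the internal elements were IAP1-MM_I-int (-4.90, from 4.43 to -0.46), IAPEY3-int (-3.22, from 2.52 to -0.70), IAP-d-int (-2.85, from 2.31 to -0.54), IAPLTR4_I (-1.95, from 1.5 to -0.46), IAPEz-int (-1.44, from 1.13 to -0.32) and IAPLTR3-int (-1.37, from 1.57 to 0.20). The LTR elements were IAPLTR4 (-5.86, from 4.76 to -1.10), IAP1-MM_LTR (-3.71, from 3.40 to -0.31), IAPLTR1a_Mm (-1.79, from 1.33 to -0.45) and IAPEY3C_LTR (-1.42, from 1.26 to -0.16). All 10 rose in *E1*, and 1 of them (IAPLTR4) was called in the clone, where it fell. The adjusted p ran from 1.42e-28 (IAP1-MM_I-int) to 6.34e-07 (IAPLTR3-int).

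The effect of disrupting *Suv39h1* and *Suv39h2* differed between the *Eset1* background (*E1 S1S2* against *E1*) and the background without *Eset1*, *Eset2*, *G9a* and *Glp* (*6KO2* against *E1E2 G9Gl*) for 7 IAP elements. Higher in the latter were IAPLTR1a_Mm (1.95, from -0.97 to 0.98), IAPEz-int (1.57, from -0.52 to 1.05), IAPLTR4_I (1.46, from -0.56 to 0.90), IAPEY4_LTR (1.38, from -1.14 to 0.24) and IAPEY3C_LTR (1.12, from -0.91 to 0.21). Lower were IAPLTR3-int (-5.16, from 3.82 to -1.34) and IAPLTR3 (-3.61, from 2.49 to -1.12). IAPLTR3-int and IAPLTR3 rose in the first background and fell in the second, and IAPEz-int rose in the second. The adjusted p ran from 7.97e-28 (IAPLTR3-int) to 2.16e-04 (IAPEY4_LTR).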

How the results depend on the processing

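The counts of IAP elements called stayed within 1.5 times the reported ones with DESeq2, with RLE factors, without the filter on low counts, with a mean count above 100, and with only the libraries compared. DESeq2 gave the same numbers of higher and lower elements in all 15 comparisons, counts of 0 included. Under factors from the repeat counts alone, 3 elements were called between *6KO1* and *6KO2* and 13 for the difference in Suv39h effect. Without a fold change minimum the counts were 15 for *E1 S1S2*, 14 for *E2* and 16 for *E1E2* against WT, 12 for *E1 S1S2* against *E1*, 6 for *E1E2* against *E2*, 10 for *E1E2* against *E1*, 18 for *6KO2* and 18 for *6KO1* against *E1E2 G9Gl*, 15 for *6KO1* against *6KO2* and 15 for the difference in Suv39h effect. The share of all repeat elements under this rule is not given here, so these counts cannot be read as particular to IAP elements. Under the same repeat-only factors, the log2 ratio of the internal sum to WT was 0.28 in *E1E2*, 0.48 in *E1 S1S2*, 0.62 in *E2*, 0.99 in *E1*, 3.95 in *6KO1*, 3.55 in *6KO2* and 2.5 in *E1E2 G9Gl*, and that of the LTR sum was 0.28, 2.20, 2.84 and 3.15 in *E1 S1S2*, *E1E2 G9Gl*, *6KO2* and *6KO1*. Without IAPEz-int the internal ratio was -0.012 in *E1E2*, 0.30 in *E2*, 1.02 in *E1 S1S2*, 2.97 in *6KO2*, 3.75 in *6KO1* and 4.10 in *E1E2 G9Gl*, so that in *E1E2* it turned from above to below WT, and without IAPLTR1_Mm the LTR ratio was 3.22 in *6KO1* and 2.56 in *6KO2*. Leaving out 1 library at a time gave 0 to 1 called between *E1E2* and *E2*, the call on IAPLTR4 being lost without *E1E2* replicate 1. The cause was not tested, beyond what the settings themselves change.

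Libraries that share a replicate number did not deviate together (mean r 0.0109, against -0.0047 for other numbers; 10 of 24 libraries correlated best with their own number), so the numbers were not taken to pair samples. A fit with the replicate number as a block gave the same 24 counts as the fit without it (for example 11 for *E1* and 23 for *6KO1* against WT). With 3 libraries per condition, an exact permutation test could not go below p = 0.1, so calls rest on the spread pooled over 24 libraries. Elements with few counts, such as IAPEY5_LTR (4 to 34) and IAPLTR3 in WT (4 to 16), limit how small a change could be seen.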
